A study of Mus musculus with 4 samples.

Results

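Langerhans cells were taken as segmented cells with at least 10 transcripts that held at least 2 transcripts of *Cd207*, which encodes langerin, and at least 2 of *Cd74*, the invariant chain of MHC class II. The rule found 721 cells among 426792 kept cells (0.169%), of which 714 lay inside a tissue section. Xenium reads out individual RNA molecules on a slice of fixed tissue with probes for a set panel, here of 328 mouse genes, and assigns them to outlined cells. The 4 slides held male dorsal skin, female dorsal skin, buccal mucosa of both sexes and male dorsal wounds taken on day 4. All groups came from adult mice bred to carry an rtTA under the *Krt5* promoter, which is active in basal epithelium, together with a *Pitx1* transgene that answers to doxycycline. PITX1+ mice ate doxycycline chow, whereas Control mice, the source of the buccal tissue as well, ate chow without it (vehicle in the labels), so the groups differ in the drug as well as in PITX1. The skin slides held 1 male and 2 female Control sections and 2 male and 2 female PITX1+ sections, and the other slides held 7 buccal sections, 1 Control wound and 2 PITX1+ wounds. The condition of a section was taken from its place on the slide, since the labels describe slides and not sections. The labels do not tie sections to animals. A legend of the study counts as many mice and mucosae as there are unwounded sections here, but no source pairs a section with an animal, so each p-value below measures the spread between sections, which may be technical.

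Langerhans cells are antigen-presenting cells that live among the keratinocytes of stratified epithelia, sample antigen there and can carry it to lymph nodes. They express langerin and MHC class II, and they depend on the receptor CSF1R, whose ligand IL-34 is made by keratinocytes, and on TGF-beta signals received in the epithelium. Some dendritic cells of the dermis also express langerin, and macrophages and dendritic cells of the dermis carry MHC class II without it. Cells with at least 2 *Cd74* transcripts and no *Cd207* transcript, of which the sections held 28923, served as a comparison that holds such cells among others and are called Cd74+ Cd207- cells. In the unwounded sections 4.17% to 15.3% of their transcripts came from the macrophage list, 3.75% to 19.0% from the fibroblast list and 3.66% to 24.2% from the epithelial lists, so they are named by their rule and not as a cell type.

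The cells were chosen by their *Cd207* and *Cd74* counts, which are therefore described without a test. The chosen cells held a median of 3 *Cd207* transcripts (range 2 to 14) and of 4 *Cd74* transcripts (range 2 to 26). Of the 714 cells, 308 (43.1%) stood exactly at the *Cd207* limit and 179 (25.1%) exactly at the *Cd74* limit. At the *Cd207* limit stood 5 of 7, 41 of 67 and 23 of 39 cells in Control and 10 of 15, 32 of 70, 29 of 54 and 37 of 71 in PITX1+ sections. In buccal sections it was 24 of 73, 19 of 57, 18 of 68, 8 of 31, 4 of 11 and 20 of 59. The chosen cells held 11.1% to 46.3% of the *Cd207* transcripts in cells of skin sections. In buccal sections with chosen cells this was 54.5% to 68.3%. Just outside the rule, skin sections held between 22 and 121 cells with 1 *Cd207* transcript and enough *Cd74*, and buccal sections between 2 and 36. Many cells therefore lay close to the limit. Fibroblast-marker cells, which should lack langerin, served as the background, although their outlines may also hold transcripts of langerin+ cells of the dermis, which was not tested. Between 1.12% and 2.12% of fibroblast-marker cells held any *Cd207* transcript in the female skin sections, with median depths of 29 to 50 transcripts per cell, against 0.0988% to 0.281% in male skin and 0% to 0.185% in buccal mucosa. Epithelial-marker cells, which here include the Langerhans cells themselves (50.7% to 100% of those in each unwounded section), held one in 1.81% to 7.01% of cells in female skin, 0.641% to 2.03% in male skin and 2.20% to 5.04% in buccal mucosa. In female skin the epithelial-marker cells were deeper than the fibroblast-marker cells, with medians of 40 to 70 transcripts per cell. The full rule was met by 0.106% of fibroblast-marker cells on the female slide, 0.0378% on the male slide and 0.0108% on the buccal slide, and by 0.191%, 0.191% and 1.32% of epithelial-marker cells in the same order. The female sections differed. Fibroblast-marker cells met it in 11 of 3683 and 4 of 3753 cells in Control and 8 of 12958 and 24 of 23912 in PITX1+ skin. For epithelial-marker cells it was 42 of 6750, 25 of 5054, 37 of 26223 and 36 of 35382. In the second female PITX1+ section both kinds thus met it about equally often, and 24 of its 71 Langerhans cells were fibroblast-marker cells.

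Transcripts on the slides numbered 6288712 to 10483436, of which 98.1% to 99.1% lay in cells. Control sections held 474847 to 749248 transcripts each, against 2832562 to 5581930 in PITX1+ skin and 136365 to 2368603 in buccal sections, totals that also follow section size. The median depth per kept cell was 26, 32 and 30 transcripts in Control, 37 to 87 in PITX1+ and 41 to 125 in buccal sections. Median depth per Langerhans cell ran from 50 to 251 transcripts over the sections. Between 1 and 7 cell identifiers occurred on more than 1 slide, as the identifiers are assigned slide by slide.

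The first question was how common Langerhans cells were in each tissue. Langerhans cells numbered 7 in the male Control section, 67 and 39 in the female Control sections, 15 and 70 in the male PITX1+ sections and 54 and 71 in the female PITX1+ sections. As a share of kept cells, this was 0.0552% in male Control, 0.387% and 0.331% in female Control, 0.0392% and 0.250% in male PITX1+ and 0.0944% and 0.0943% in female PITX1+ skin. On the female slide both PITX1+ sections lay below both Control sections, whereas on the male slide the single Control section lay between the PITX1+ sections. The mean share was 0.258% ± 0.177 (SD, n = 3) in Control and 0.119% ± 0.0908 (SD, n = 4) in PITX1+ skin, which did not pass a two-sided exact permutation test (p = 0.229, adjusted p = 0.4 over 6 such tests). With 3 sections against 4 the smallest p possible is 0.0571. Within slides the PITX1+ minus Control difference was -0.264 percent of cells on the female slide and 0.0894 on the male slide, and with sections exchanged only within a slide the joint difference of -0.123 had an exact permutation p of 0.222 (smallest possible 0.0556). Per 1000 epithelial-marker cells the means were 6.42 ± 4.39 and 2.55 ± 2.03 (exact permutation p = 0.229, adjusted p = 0.4). Per square millimetre of tissue they were 6.57 ± 4.96 and 5.88 ± 3.27 (exact permutation p = 0.743, adjusted p = 0.743), and this small difference changed sign when the first male PITX1+ section (0.612) or the first female Control section (1.60) was left out. Within slides the differences were -6.84 (female) and 1.53 (male) per 1000 epithelial-marker cells and -3.42 and 4.69 per square millimetre, with within-slide exact permutation p-values of 0.222 and 0.944.

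Buccal mucosa held 0 to 73 Langerhans cells per section (median 57). The share of kept cells ran from 0% to 0.766% (median 0.460%), with 5 of 7 buccal sections above every Control section. The section without any, Buccal 3, held only 43 epithelial-marker cells, and 0 of its 2449 kept cells allows a share of up to 0.122% when 3 counts are taken as the limit (exact 95% upper bound 0.151%). Density ran from 0 to 37.6 cells per square millimetre (median 22.4), against 1.30, 11.1 and 7.27 in the Control sections. The means, 20.8 ± 12.5 (SD, n = 7) against 6.57 ± 4.96 (SD, n = 3), did not pass the test (two-sided exact permutation p = 0.117, adjusted p = 0.4), and neither did the share (0.415% ± 0.256, p = 0.35, adjusted p = 0.42) or the number per 1000 epithelial-marker cells (11.0 ± 5.93, p = 0.267, adjusted p = 0.4) by the same permutation test. Depth differed along with tissue. When each cell was thinned to 30 transcripts and 1 of each marker was required, the shares became 0.164%, 1.21% and 0.806% in Control, 0.0784% to 0.278% in PITX1+ and 0.0601% to 0.356% in buccal sections, with the buccal mean below the Control mean. Cells with fewer than 30 transcripts were left out, which were 7186 of 12684, 7892 of 17335 and 5699 of 11778 in Control. In buccal mucosa they ran from 553 of 9529 in Buccal 1 to 863 of 2449 in Buccal 3, so the cells counted were unlike. Without thinning, the same limit of 1 of each marker gave 0.315%, 1.90% and 1.38% in Control and 0.0817% to 1.49% in buccal sections, also with the lower mean in buccal mucosa. In the female Control sections 2.12% and 1.55% of fibroblast-marker cells held a *Cd207* transcript, against at most 0.185% in buccal sections. The part of this background at a limit of 1 was not tested.

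**Figure D1:**
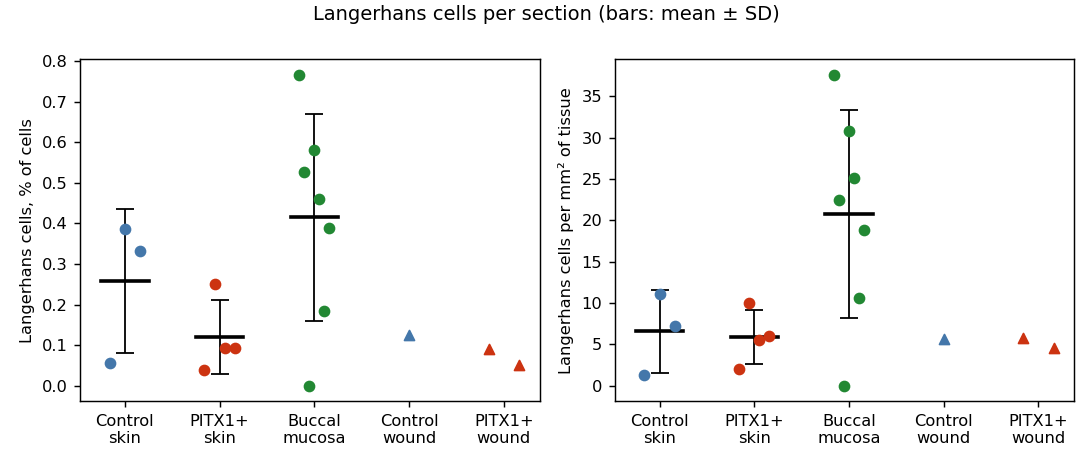
Langerhans cells per section as a percent of kept cells (left) and per square millimetre (right). Each point is 1 section, lines and bars give mean and SD, and triangles are wounds, which have no test. The female Control sections stood at 0.387% and 0.331% and the female PITX1+ sections at 0.0944% and 0.0943%, and 5 of 7 buccal sections lay above every Control section on both measures.

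The second question was where these cells lay, which the rule did not use. A cell was called inside the epithelium when at least 5 of its 10 nearest cells were epithelial-marker cells, that is, cells with at least 3 transcripts of the epithelial lists and more of them than of any other list. Langerhans cells lay inside the epithelium far more often than Cd74+ Cd207- cells of the same section. The share was 90.1% ± 14.1 against 20.6% ± 7.19 (SD, n = 13 unwounded sections), higher in 13 of 13 (two-sided exact sign-flip permutation p = 0.000244, the smallest that 13 pairs allow). By section the share of Langerhans cells inside was 100% in male Control, 89.6% and 71.8% in female Control, 86.7% and 91.4% in male PITX1+ and 77.8% and 54.9% in female PITX1+ skin. In buccal mucosa it was 98.6% in Buccal 1 and 100% in the other 5 sections. For Cd74+ Cd207- cells it was at most 35.5%. The inside share of all kept cells was not taken, so the test speaks only to the difference from Cd74+ Cd207- cells. In the second female PITX1+ section, with 54.9% inside, 35346 of 75268 kept cells were epithelial-marker cells other than Langerhans cells. The PITX1+ mean (77.7% ± 16.2) did not differ from the Control mean (87.1% ± 14.3) by more than the spread (exact permutation p = 0.514, and p = 0.167 within slides), nor did the buccal mean (99.8% ± 0.559, exact permutation p = 0.167).

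Langerhans cells sat close to keratinocytes and, in buccal mucosa, close to each other. The median distance from a Langerhans cell to the nearest epithelial-marker cell was 6.21 to 11.3 µm over the unwounded sections, against 18.8 to 113 µm for Cd74+ Cd207- cells. Epithelial-marker cells made up 61.5% to 92.9% of the 10 nearest cells in Control, 55.2% to 74.9% in PITX1+ and 88.3% to 97.3% in buccal sections. Fibroblast-marker cells made up 2.86% to 20.5%, 10.7% to 29.7% and 0% to 4.41%, in the same order. The median distance to the next Langerhans cell was 26.3 to 52.5 µm in buccal sections, 80.7 to 347 µm in Control and 65.5 to 186 µm in PITX1+ sections, so the buccal range did not overlap either of the others. In buccal sections 36.4% to 71.2% of Langerhans cells had another within 50 µm, against 0% to 28.2% in Control and 0% to 39.4% in PITX1+ skin. The nearest macrophage-marker cell lay at a median of 62.5 to 96.3 µm in Control, 38.6 to 52.2 µm in PITX1+ and 39.3 to 80.4 µm in buccal sections. These distances follow the density of both kinds of cell and were not tested.

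**Figure D2:**
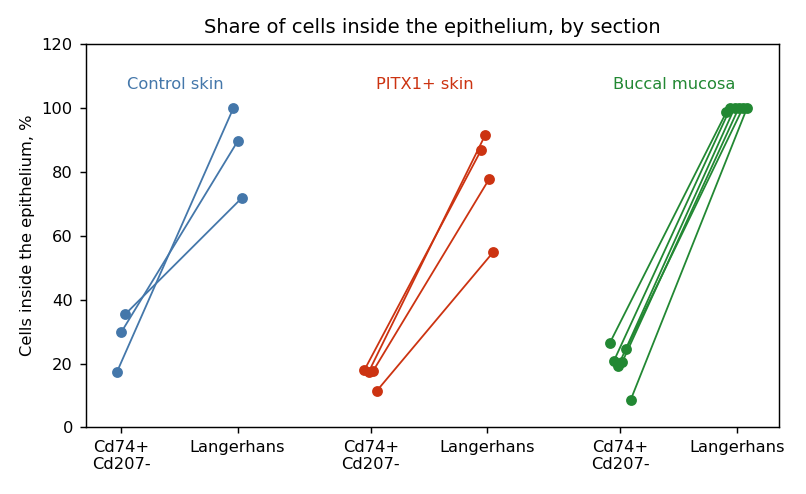
Percent of cells inside the epithelium for Cd74+ Cd207- cells and for Langerhans cells of the same section, with 1 line per unwounded section coloured by condition. The line rises in 13 of 13 sections, from a mean of 20.6% to a mean of 90.1%.

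The third question was which genes marked Langerhans cells against the cells near them. A 5 µm slice and drawn cell outlines let transcripts of one cell fall in the outline of another, and 26.7% to 48.2% of the transcripts in Langerhans cells of the unwounded sections came from the epithelial lists, against 3.66% to 24.2% in Cd74+ Cd207- cells. Langerhans cells were therefore compared with neighbouring cells, meaning cells within 30 µm that held no *Cd207*, in sums per section. The neighbours were not required to hold *Cd74*. edgeR's quasi-likelihood test with section as a block called 59 of 165 genes (35.8%), 22 higher (13.3%) and 37 lower (22.4%) in Langerhans cells. Scaling by library size alone gave 18 higher and 57 lower. Levels below are CPM, a section's summed transcripts of a gene scaled to a total of 1000000, and probes differ between genes, so levels are compared only within a gene.

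Of the 7 genes listed as support for the cell type, *Csf1r*, *Ctss*, *Cd52* and *Cxcl16* passed the filter on low counts and were higher. *Itgax*, *Itgam* and *Napsa* did not pass the filter and were not tested here. A gene scarce in the neighbours could pass through its level in Langerhans cells, so this count is a description. *Csf1r*, the receptor for IL-34, stood at 6593 CPM in male Control, 11975 and 15897 CPM in female Control, 18163 and 11665 CPM in male PITX1+, 12430 and 10348 CPM in female PITX1+ and 5419 to 9933 CPM (median 8552 CPM) in buccal Langerhans cells. The neighbouring cells of the same sections lay between 100 and 2312 CPM, below every Langerhans value. The log2 fold change of *Csf1r* was 4.37 (SE 0.44, edgeR adjusted p = 2.57e-07), higher in 13 of 13 sections. *Csf1r* was seen in 378 of 622 Langerhans cells (60.8%) and in 5.19% of 11230 neighbouring cells, at median depths of 117.5 and 105 transcripts. *Cd52*, a leukocyte surface glycoprotein, had a log2 fold change of 3.66 and was higher in 10 of 13 sections, and *Cxcl16*, a membrane-bound chemokine, had one of 2.52 and was higher in 12 of 13.

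*Tnf*, the inflammatory cytokine, had the largest log2 fold change of the tested genes that the rule did not use. Its level was 10989 CPM in male Control, 733 and 2271 CPM in female Control, 17154 and 2831 CPM in male PITX1+, 2572 and 1357 CPM in female PITX1+ and 1289 to 2721 CPM (median 2047 CPM) in buccal Langerhans cells. The mean over 13 sections was 3835 ± 4752 CPM against 115 ± 180 CPM in neighbouring cells (log2 fold change 5.60, SE 0.44, edgeR adjusted p = 3.06e-08, higher in 13 of 13 sections). The highest 2 values came from sections with 7 and 15 Langerhans cells, and the rest lay at or below 2831 CPM. Buccal 6, with 11 Langerhans cells, lay within the buccal range. *Tnf* was seen in 109 of 622 Langerhans cells (17.5%) and in 67 of 11230 neighbours (0.597%).

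Of the 5 tested antigen-processing and lysosomal genes 4 were higher, where 13.3% of all tested genes were. *Ctss*, the protease that trims the invariant chain, rose from 1238 ± 1060 to 8095 ± 2035 CPM (log2 fold change 3.53, higher in 13 of 13 sections). *Gm2a*, a lipid-binding lysosomal activator protein, rose from 2206 ± 360 to 6955 ± 2652 CPM (log2 1.78), and *Grn*, the lysosomal growth factor progranulin, from 3638 ± 1433 to 7184 ± 2916 CPM (log2 1.10). *Lyz2*, the lysozyme of myeloid cells, passed narrowly (log2 0.91, edgeR adjusted p = 0.0485) and lost the call by library size, by DESeq2 and when most of the sections were left out in turn. *Cd63*, a tetraspanin of late endosomes, did not pass.

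Of the 6 tested receptor and response genes for signals of the epithelium 2 were higher (*Csf1r* and *Tgfbr1*), 1 was lower (*Id3*) and 3 were not called, with a median log2 fold change of -0.15 against -0.16 over all tested genes. *Tgfbr1*, the signalling receptor for TGF-beta, stood at 2144 ± 1304 CPM against 787 ± 476 CPM (log2 1.57, edgeR adjusted p = 0.000227), higher in 11 of 13 sections. *Tgfb1*, the ligand Langerhans cells themselves are known to make, had a log2 fold change of 1.47. In the inflammation list 6 of 8 tested genes were higher and 0 lower, where 13.3% of all tested genes were higher and 22.4% lower. Genes scarce in the neighbours, such as *Tnf*, could pass the filter through Langerhans cells here too. The 6 were *Tnf*, the IL-18 receptor *Il18r1* (log2 1.50), the IL-1 receptor *Il1r1* (0.88), its partner *Il1rap* (0.64), the adhesion ligand *Icam1* (0.68, edgeR adjusted p = 0.0433) and the hyaluronan receptor *Cd44* (0.78). The calls of *Icam1* and *Il1rap* were lost under several settings. Of the 6 cell cycle genes tested, 0 were called in either direction, where 35.8% of all genes were.

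Of 37 tested genes of the epithelial lists 11 were lower, 0 were higher and 26 were not called (median log2 -0.30), where 22.4% of all tested genes were lower. Among them 5 of 23 suprabasal genes were lower, and of 6 fibroblast genes 3 were lower. The largest decreases were in the matrix genes *Timp3* (-1.64), *Postn* (-1.50) and *Col5a1* (-1.40) and in the muscle filament gene *Des* (-1.37). The keratinocyte cytokines *Il1f8* (-1.35) and *Il1f6* (-0.90) were lower as well, and *Il34* itself did not pass (-0.58, edgeR adjusted p = 0.117). *Id3*, a target of BMP and TGF-beta signalling, was lower (-0.75) in 12 of 13 sections.

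**Figure D3:**
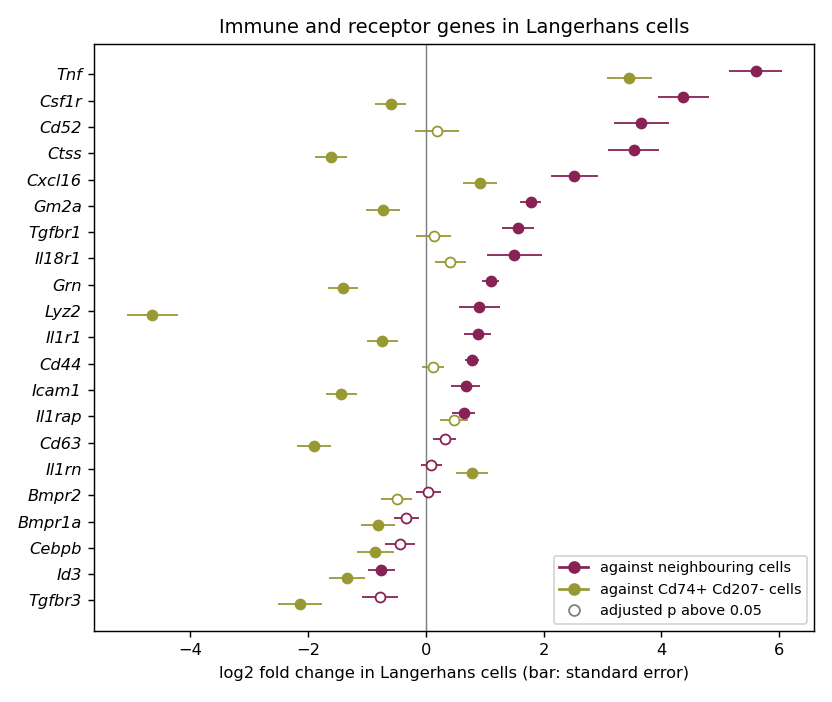
Log2 fold change with SE of immune, antigen-processing and receptor genes in Langerhans cells against neighbouring cells (purple) and against Cd74+ Cd207- cells of the same sections (olive). Open points have an edgeR adjusted p above 0.05. *Tnf* stood at 5.60 and 3.45, whereas *Csf1r* stood at 4.37 against neighbours and at -0.60 against Cd74+ Cd207- cells.

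The same test was run against Cd74+ Cd207- cells of the same section. edgeR's quasi-likelihood test called 141 of 195 genes (72.3%), 48 higher (24.6%) and 93 lower (47.7%). By library size the split was 61 higher and 73 lower. The macrophage, fibroblast, vascular and muscle lists were all lower. They gave 9 of 9 macrophage genes (median log2 fold change -4.64), 11 of 11 fibroblast genes (-3.68), 4 of 4 vascular genes (-3.93) and 3 of 3 muscle genes (-3.98), against a median of -0.57 over all tested genes. Genes scarce in Langerhans cells could pass the filter on low counts through the Cd74+ Cd207- cells, so these counts are a description. *Mrc1*, the mannose receptor, fell from 10723 ± 6093 to 727 ± 1042 CPM (log2 -5.02), *Lyz2* from 34132 ± 22276 to 2604 ± 3743 CPM (log2 -4.64) and the lysosomal glycoprotein *Cd68* from 3869 ± 1405 to 918 ± 653 CPM (log2 -2.74), each in 13 of 13 sections. *Retnla*, a product of alternatively activated macrophages, was counted only 2 times in Langerhans cells against 8922 times in Cd74+ Cd207- cells (log2 -9.18). The monocyte chemokine *Ccl8* (-5.47), the chemokine receptor *Ccr2* (-4.20) and the integrin *Itgam* (-2.64) were lower too, and so were *Des* (-6.77) and the extracellular peroxidase *Gpx3* (-5.71).

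Of the immune lists, the support list had 2 genes higher and 3 lower of 7 tested, the inflammation list 2 higher and 3 lower of 8, the chemokine list 1 higher and 3 lower of 5 and the antigen-processing list 0 higher and 6 lower of 7, where 24.6% of all tested genes were higher and 47.7% lower. Leaving the genes of the rule aside, *Tnf* had the largest increase, with 3835 against 192 ± 129 CPM (log2 3.45, SE 0.38, edgeR adjusted p = 3.26e-07, 13 of 13 sections). Within the immune lists *Itgax*, the integrin CD11c (0.93, edgeR adjusted p = 0.025), *Cxcl16* (0.92, edgeR adjusted p = 0.008) and the IL-1 receptor antagonist *Il1rn* (0.79, edgeR adjusted p = 0.0146) followed. *Itgax* lost the call when Buccal 1 or Buccal 2 was left out. The remaining leading genes, *Mt4*, *Krt1*, *Crabp2* and *Efna3* (2.18 to 1.66), are keratinocyte genes, and 26 of 33 tested genes of the epithelial lists were higher and 0 lower, where 24.6% of all tested genes were higher, beside the epithelial share of transcripts given above. *Csf1r* was close to equal (10504 ± 3588 against 12915 ± 6352 CPM, log2 -0.60, edgeR adjusted p = 0.0419), higher in 6 sections and lower in 7, and the call was lost by library size and without 11 of the 13 sections in turn. *Cd52*, *Napsa* and *Tgfbr1* did not pass (log2 0.20, 0.11 and 0.13), while *Ctss* (-1.61), *Grn* (-1.41), *Cd63* (-1.90), *Tgfb1* (-1.16), *Tgfb3* (-2.76) and *Tgfbr3* (-2.13) were lower.

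The comparison of PITX1+ with Control Langerhans cells rested on 7, 67 and 39 Control cells and on 15, 70, 54 and 71 PITX1+ cells per section. The 54 and 71 came from the female PITX1+ sections, where *Cd207* per transcript was no higher in epithelial-marker than in fibroblast-marker cells. edgeR's quasi-likelihood test with slide as a covariate called 7 of 93 genes (7.53%), 7 higher and 0 lower, where 18 genes had an unadjusted p at or below 0.05. None of the 5 tested support genes or of the 5 tested antigen-processing genes was called. *Csf1r* differed by 0.36 (edgeR adjusted p = 0.858), *Tnf* by 0.42 (edgeR adjusted p = 0.858) and *Cxcl16* by 0.83 (edgeR adjusted p = 0.640) on the log2 scale. On simulated sums of the same depth the test found 14.3% of genes changed 4-fold and 0% of genes changed 2-fold, so many changes of these sizes could be missed at this depth. This was a single draw with 28 changed genes and no difference between slides built in, so the shares found are coarse.

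Of the 7 called genes 3 were on the suprabasal list, where 13 genes were tested and 7.53% of all 93 tested genes were called. Genes scarce in Control could pass the filter on low counts through the PITX1+ cells, so these counts are a description. *Cstdc5*, a cystatin of the stefin family, was counted 2 times in Control and 206 times in PITX1+ Langerhans cells, a ratio of shares of 36.3 (95% exact interval 9.93 to 302, counting error only). *Fabp5*, the epidermal fatty acid-binding protein, stood at 2198 CPM in male Control, 978 and 757 CPM in female Control, 3027 and 3284 CPM in male PITX1+ and 32790 and 36980 CPM in female PITX1+ Langerhans cells (log2 4.74). The male PITX1+ sections lay above every Control section and below the female PITX1+ sections. The Langerhans cells of male Control and of the first male PITX1+ section held only 455 and 991 transcripts of all genes. The cells around them showed *Fabp5* at 11273 and 5156 CPM in male PITX1+ and 28011 and 44263 CPM in female PITX1+ sections, so the female neighbours were as high as the Langerhans cells. The cornified envelope gene *Sprr2a3* was in the same order, with 2198, 1711 and 379 CPM in Control, 3027 and 6908 CPM in male PITX1+ and 39863 and 34606 CPM in female PITX1+ Langerhans cells. The difference between the slides in the change did not pass for either gene by edgeR's interaction term (adjusted p = 0.417 for *Fabp5* and 0.446 for *Sprr2a3*). Also higher were the barrier protein gene *Flg* (log2 4.24) and, named after their values were seen, *Stfa3* (3.53) and the gasdermin *Gsdmc* (3.50). *Stfa3* lay above every Control section in 3 of 4 PITX1+ sections and was not called by DESeq2 (adjusted p = 0.128). In all epithelial-marker cells, where 26.4% of 326 genes were called, *Fabp5* (log2 2.01, edgeR adjusted p = 0.111) and *Sprr2a3* (log2 2.26, edgeR adjusted p = 0.156) did not pass. The part that transcripts of adjoining keratinocytes played was not tested. The count of called genes was 17 without the male Control section, 4 without the first male PITX1+ section and 3 without either female PITX1+ section. Library size alone gave 7 higher and 4 lower. An interaction term between slide and PITX1+ passed for 3 of 95 genes (3.16%), with a male Control arm of only 1 section.

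Buccal Langerhans cells differed from Control skin Langerhans cells in 70 of 126 genes (55.6%), 44 higher (34.9%) and 26 lower (20.6%). Buccal mucosa lay on a slide of its own, so tissue and slide cannot be told apart. *Itgax* stood at 0, 489 and 1136 CPM in the Control sections and at 2008 to 3823 CPM in buccal Langerhans cells, above all 3 Control values in 6 of 6 sections (log2 2.21, SE 0.58, edgeR adjusted p = 0.00407). It had 5 transcripts over all Control Langerhans cells and so passed the filter on low counts through the buccal group, which makes its call a description. In epithelial-marker cells *Itgax* did not differ in this way (log2 -0.18, edgeR adjusted p = 0.775). *Tgfbr1* was counted 3 times in Control and 235 times in buccal Langerhans cells, a ratio of shares of 7.38 (95% exact interval 2.49 to 36.0, counting error only), with 2198, 244 and 379 CPM in Control and 2362 to 4673 CPM in buccal sections. It too passed the filter through the buccal group, and male Control Langerhans cells held only 455 transcripts in all. *Cd44* (4384 to 9812 CPM, log2 1.45) and *Cd63* (log2 1.43) were higher as well, and both were also higher in the epithelial-marker cells of buccal mucosa (log2 2.65 and 1.94). The chemokine receptor *Ccr1* was called with only 2 Control transcripts (ratio of shares 4.76, 95% exact interval 1.28 to 39.8), and DESeq2 did not call it. *Ccr1* also passed the filter through the buccal group.

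*Il1r1* went the other way. It stood at 4396 CPM in male Control, 3666 and 4542 CPM in female Control and 283 to 1138 CPM in buccal Langerhans cells, with no overlap (4201 ± 469 against 624 ± 288 CPM, log2 -2.47, SE 0.45, edgeR adjusted p = 0.000185). The male Control value rested on very few transcripts, as its Langerhans cells held only 455 of all genes. The PITX1+ sections, at 1009 and 3851 CPM in males and 3000 and 2884 CPM in females, were all below the Control values except 3851 CPM. Epithelial-marker cells of buccal mucosa were lower in *Il1r1* too (log2 -1.36, edgeR adjusted p = 0.0098). *Lyz2* was lower in buccal Langerhans cells (log2 -2.21, edgeR adjusted p = 0.0195), without the call by DESeq2. *Csf1r* (-0.44, edgeR adjusted p = 0.293), *Tnf* (-0.12, edgeR adjusted p = 0.843), *Ctss* (0.00) and *Cxcl16* (-0.68) were not called. Of the 6 tested support genes 1 was called (*Itgax*, with the limit of the filter given above), where 55.6% of all tested genes were called.

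**Figure D4:**
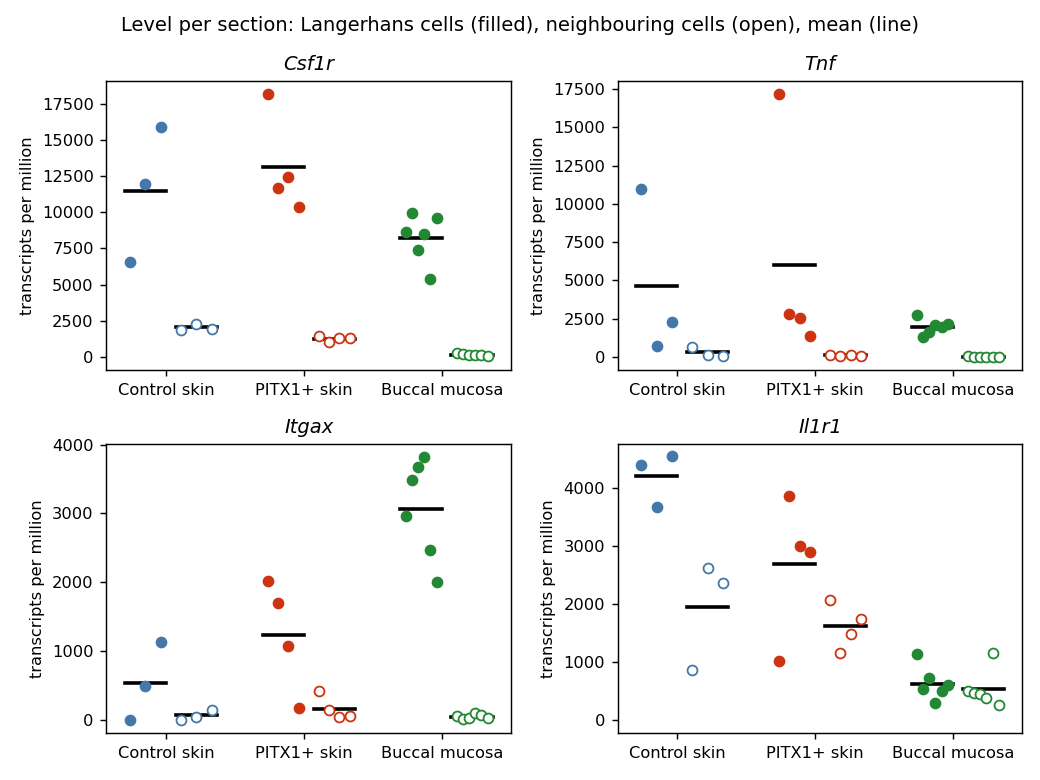
*Csf1r*, *Tnf*, *Itgax* and *Il1r1* in CPM by section. Filled points are Langerhans cells, open points are neighbouring cells, and lines are group means. *Csf1r* in Langerhans cells lay above every neighbour value, and *Il1r1* in Langerhans cells was 3666 to 4542 CPM in Control and 283 to 1138 CPM in buccal sections.

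Among the largest buccal differences, *Krt4*, a keratin of the oral lining, was absent from the 7189 Control transcripts and at least 195-fold higher in buccal Langerhans cells, taking 3 transcripts as the floor of the whole Control group. By the same floor the protease inhibitor *Slpi* was at least 50.3-fold, *Chil3* at least 32.0-fold and the cornified envelope gene *Cnfn* at least 7.98-fold higher. *Krt4*, *Slpi*, *Chil3* and *Cnfn* had 0 Control transcripts and so passed the filter on low counts through the buccal group. The transglutaminase gene *Tgm3* had 2 Control transcripts. *Krt77*, a keratin of interfollicular skin, was absent from the 76308 buccal transcripts and at least 1337-fold higher in Control. *Clca3a2* (-8.96), *Col1a1* (-8.41), *Flg2* (-6.77) and *Fcgbp* (-6.69) were lower in buccal Langerhans cells. *Chil3*, a chitinase-like protein known from myeloid cells, was seen in 29.7% of Langerhans cells of the unwounded sections and in 23.5% of their neighbours, which did not pass between the 2 kinds of cell (log2 0.55, edgeR adjusted p = 0.148). Of 22 tested suprabasal genes 16 were higher and 3 lower in buccal Langerhans cells, and of 9 basal genes 1 was higher and 4 were lower (median log2 -1.26), where 34.9% of all tested genes were higher and 20.6% lower. Of the 16 higher genes 8 had at most 3 Control transcripts and so passed the filter on low counts through the buccal group, which makes the count a description. In buccal epithelial-marker cells 18 of 25 tested suprabasal genes were higher and 5 lower (median log2 3.01), where 28.1% of all tested genes were higher and 30.9% lower.

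Within skin, 5 sections held at least 5 Langerhans cells both inside and outside the epithelium, namely the female sections and the second male PITX1+ section. The cells outside numbered 6 to 32 per section. They are named by the rule alone, which langerin+ dendritic cells of the dermis could also meet. What kind of cell they were was not tested. edgeR's quasi-likelihood test called 17 of 33 genes (51.5%), 14 higher inside (42.4%) and 3 lower inside (9.09%). Genes scarce outside could pass the filter on low counts through the cells inside, so the count of higher genes is a description. Inside was itself defined by epithelial-marker neighbours, so keratinocyte genes were not independent of the grouping. Cells outside had more neighbours of other kinds, so genes of dermal cells, among them those lower inside, were not independent of it either. The part that transcripts of adjoining cells played was not tested. By library size the split was 13 higher and 14 lower. *Csf1r* was higher inside. The cells inside held 12477 CPM in the second male PITX1+ section, 13039 and 18576 CPM in female Control and 13899 and 12278 CPM in female PITX1+ skin. The cells outside held 1527 CPM, 0 and 0 CPM, and 4231 and 6303 CPM in the same order, below the inside value in 5 of 5 sections (log2 3.27, SE 0.80, edgeR adjusted p = 0.0119). The outside sum rested on 16 *Csf1r* transcripts, so *Csf1r* could pass the filter through the cells inside and its call is a description. The call was lost without the second male PITX1+ section, when 9 genes were called in all. Lower inside were *Lyz2* (15441 ± 9573 CPM outside and 1460 ± 1048 CPM inside, log2 -2.44, edgeR adjusted p = 0.0054), *Mgl2*, a lectin of dermal dendritic cells and macrophages (-1.50), and *Vim*, the intermediate filament of mesenchymal and immune cells (-0.74). DESeq2 called neither *Mgl2* (adjusted p = 0.135) nor *Vim* (adjusted p = 0.212). *Ctss* (-0.73) and *Cxcl16* (0.07) were not called. In CPM *Ctss* was 20939 ± 3314 outside and 6204 ± 1159 inside, lower inside in 5 of 5 sections. *Cxcl16* was 15118 ± 11350 and 7402 ± 4206 CPM, lower inside in 4 of 5. *Col1a1*, at 105568 ± 40394 CPM outside and 15874 ± 12444 CPM inside, was not called by edgeR (adjusted p = 0.0574) but was by DESeq2 (adjusted p = 0.0299). Scaling by library size moved the median log2 fold change of this comparison by -1.01. *Krt5* (5.83) and *Krt17* (5.24) were among the higher genes, and *Krt1*, *Crabp2* and *Fcgbp* had at most 3 transcripts outside.

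The last question was whether keratinocytes near Langerhans cells differed in genes for signals known to keep or draw them. Epithelial-marker cells within 30 µm of a Langerhans cell were compared with all others of the section by a two-sided exact sign-flip permutation test over 13 sections, with adjustment over all 318 genes with enough transcripts. Of these 95 passed (29.9%), 21 higher near Langerhans cells (6.6%) and 74 lower (23.3%). Of the 10 ligand genes 1 was higher and 2 were lower. *Il34*, the ligand of CSF1R, was the higher one. Near and far cells held 5145 and 2426 CPM in male Control, 1547 and 1434 CPM and 1992 and 1361 CPM in female Control, 623 and 445 CPM and 2800 and 639 CPM in male PITX1+, and 320 and 314 CPM and 473 and 296 CPM in female PITX1+ skin. In buccal sections near cells held 1703 to 3126 CPM and far cells 1192 to 1891 CPM. Every section was higher near Langerhans cells, although the first sections of female Control and female PITX1+ skin were nearly level (mean log2 ratio 0.64 ± 0.52, exact permutation p = 0.000244, adjusted p = 0.00597). The log2 difference of *Il34* over all epithelial-marker cells was -2.15 in PITX1+ (edgeR adjusted p = 0.0035) and 1.15 in buccal sections (edgeR adjusted p = 0.0286, where 59.0% of 324 genes were called, 28.1% higher and 30.9% lower), both against Control.

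*Tgfb3* was lower near Langerhans cells in 13 of 13 sections (166 ± 167 against 390 ± 308 CPM, mean log2 ratio -1.43, exact permutation adjusted p = 0.00597), with 0 near transcripts in male Control. The chemokine *Cxcl12* was lower in 12 of 13 (580 ± 645 against 1073 ± 856 CPM, mean log2 ratio -1.04, exact permutation adjusted p = 0.00706), the first male PITX1+ section being the exception. *Tgfb1*, *Itgb6*, *Bmp2*, *Bmp7*, *Ccl27a*, *Il1f6* and *Il1f8* did not pass over the 13 sections. *Csf1r* (608 against 387 CPM, adjusted p = 0.0300) and *Cxcl16* (2043 against 1599 CPM, adjusted p = 0.0234) passed as higher near Langerhans cells by the same exact permutation test. Both were also higher in Langerhans cells than in their neighbours, of which 5.19% held *Csf1r* and 13.1% *Cxcl16*. The part that transcripts of Langerhans cells played was not tested. The make-up of the near and far cells also differed. The share of epithelial-list transcripts from the follicle list was 13.0% near and 17.9% far, and the median depth was 118 and 101 transcripts. In skin the follicle share was 19.5% near and 29.2% far (lower near in 6 of 7 sections). In buccal mucosa it was 5.55% near and 4.83% far (higher near in 4 of 6). The suprabasal share went opposite ways in the tissues. In skin it was 54.9% near and 41.3% far, higher near in 7 of 7 sections, and in buccal mucosa 75.6% near and 81.6% far, lower near in 5 of 6. The basal share was 25.7% near and 29.5% far in skin (lower near in 6 of 7 sections) and 18.9% near and 13.6% far in buccal mucosa (higher near in 6 of 6). The part of these differences in the ligand results was not tested.

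**Figure D5:**
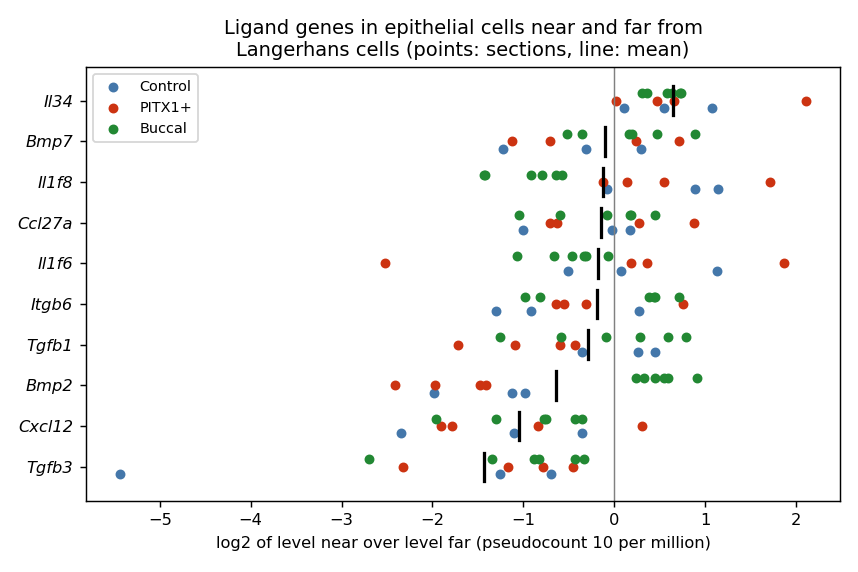
Log2 ratio of each ligand gene in epithelial-marker cells within 30 µm of a Langerhans cell over all other epithelial-marker cells, with 1 point per unwounded section coloured by condition and a line at the mean. *Il34* lay above 0 in 13 of 13 sections, *Tgfb3* below 0 in 13 of 13, and *Bmp2* below 0 in every skin section and above 0 in every buccal section.

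Skin and buccal mucosa differed in some of these genes. An exact permutation test of the log2 ratio between 7 skin and 6 buccal sections passed for 33 of 318 genes (10.4%), and *Bmp2* and *Il1f8* were the ligands among them. *Bmp2*, a BMP ligand, was lower near Langerhans cells in 7 of 7 skin sections (401 against 1347 CPM, mean log2 ratio -1.62, range -2.42 to -0.98) and higher near them in 6 of 6 buccal sections (535 against 376 CPM, mean 0.51, range 0.25 to 0.91). The difference of 2.14 had an exact permutation p of 0.000583 and an adjusted p of 0.0218. *Il1f8* had a mean log2 ratio of 0.61 in skin (range -0.12 to 1.72) and of -0.96 in buccal mucosa (range -1.43 to -0.57), where near cells held 2832 CPM and far cells 5621 CPM (exact permutation p = 0.00117, adjusted p = 0.0218). The suprabasal and basal shares of near against far cells also went opposite ways in the tissues, as given above, and their part in these ratios was not tested. The share of follicle cells, which buccal mucosa lacks, was not matched either, and tissue and slide cannot be told apart.

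The wounds, with 1 Control and 2 PITX1+ sections, are given as values without a test. The Control wound held 23 Langerhans cells, or 0.126% of kept cells (95% exact interval 0.0798% to 0.189%, counting error only). The PITX1+ wounds held 35 (0.0916%, 0.0638% to 0.127%) and 34 (0.0508%, 0.0352% to 0.0709%). Density was 5.63 per square millimetre in the Control wound and 5.80 and 4.54 in the PITX1+ wounds. Inside the epithelium lay 82.6% of Langerhans cells in the Control wound and 91.4% and 73.5% in the PITX1+ wounds. *Csf1r* stood at 20061 CPM in the Control wound and at 14005 and 17467 CPM in the PITX1+ wounds, and *Tnf* at 8501, 7623 and 5240 CPM in the same order. *Tnf* was seen in 33 of 92 wound Langerhans cells (35.9%) and 2.43% of their neighbours. Median distances to the nearest macrophage-marker cell were 28.6 to 32.2 µm, shorter than in any unwounded section. Cells in which at least 2 of the 10 cell cycle genes were seen made up 30.4% to 48.6% of wound Langerhans cells. The cells around these gave 20.6% to 31.3%. In unwounded sections it was 10.3% to 39.7% of Langerhans cells and 11.8% to 38.1% of the cells around them.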

How the data were processed

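Xenium in situ data of 4 slides were used. The authors deposited the instrument's output for each slide. The deposited transcripts table lists every decoded transcript with its gene, a quality score, a position (another unit, in µm), a nucleus mark and a cell, and the deposited cells table holds raw transcript counts per cell, without normalization. Software version and segmentation settings are not given in the sources used here. Cell and nucleus outlines were not used, and 0 other columns of per-sample values were present.

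Per cell, transcripts of 328 genes were summed if their quality score reached 20, and cells with at least 10 were kept without removing doublets. Cells chained within 100 µm (wounds 200 µm) formed sections of at least 2000 cells, ordered by position. As a check, cells with at least 3 genes were counted: 14 of 14 unwounded sections came closest to a listed total of their own condition, within 4.91% for Buccal 5 and within 0.493% for the rest. The wounds were not checked in this way. The members and lists were chosen with earlier results of these data known.

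A cell took the marker list with the most transcripts (at least 3). Counts were summed per section with at least 5 Langerhans cells and compared with edgeR 4.0.16 and limma 3.58.1 in R 4.3.3 (filterByExpr, TMM, quasi-likelihood test, Benjamini-Hochberg adjustment over all genes tested, threshold 0.05), with DESeq2 1.42.0 as an alternative. Area was the number of occupied 50 µm squares. Shares, positions and near against far ratios (pseudocount 10 CPM, at least 20 near transcripts) were tested between sections by exact permutation, two-sided, with scipy 1.17.1, pandas 2.3.3 and numpy 2.4.6 under Python 3.11.15, and plotted with matplotlib 3.10.9. The smallest p is 0.0571 for 3 against 4 sections, 0.0167 for 3 against 7, 0.0238 for 3 against 6 and 0.000244 for 13 pairs. All genes of the Langerhans cell support, antigen-processing, ligand, receptor, chemokine, inflammation and cell cycle lists could be named, and otherwise the 5 largest called changes in each direction of each comparison. A gene that this rule names is not reported here. Intervals cover counting error only.

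Added after seeing the data were the comparison with neighbouring cells, the fits on epithelial-marker cells, the tests of cells around Langerhans cells, the test of near against far ratios between skin and buccal mucosa, the exchange of sections within a slide, and the settings without *Cd74* or without Buccal 3. The near against far test was planned over the ligand list and run over all genes. On simulated sums edgeR found 96.7% of genes changed 4-fold and 72.4% of genes changed 2-fold for Langerhans cells against Cd74+ Cd207- cells (197 genes), 100% and 91.7% against neighbouring cells (167 genes), 14.3% and 0% for PITX1+ against Control (95 genes), and 100% and 22.2% for buccal against Control (128 genes). Each came from a single draw, with 59, 50, 28 and 38 changed genes in the same order. The alternatives were other limits on *Cd207*, *Cd74*, depth and quality, thinned cells, library size, DESeq2, no filter on genes, nuclear transcripts, no epithelial genes, no slide covariate, other neighbour rules and distances, and leaving out each section.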

Additional observations from a re-analysis of the deposited data

Results flagged for a closer look

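Dixon's test was run on 26 sets of section values, and chance marks about 1 in 20. In the PITX1+ sections, *Il34* in epithelial-marker cells near Langerhans cells stood at 2800 CPM in the second male section and at 320 to 623 CPM in the others. *Cxcl12* in the same kind of cell stood at 2181 CPM in the first male PITX1+ section and at 228 to 544 CPM in the others. *Tnf* in Langerhans cells stood at 17154 CPM in the first male PITX1+ section, which held 15 Langerhans cells, and at 1357 to 2831 CPM in the others. The share of Langerhans cells inside the epithelium was 98.6% in Buccal 1 and 100% in every other buccal section that held any. In Buccal 1 this was 1 of 73 cells outside, and with all other values at 100% any cell outside would be marked.

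For 3 of 95 tested genes (3.16%) an interaction term in edgeR's quasi-likelihood test passed between slide (female or male) and the change from Control to PITX1+ Langerhans cells. The male Control arm was 1 section, which the test assumes to vary like the sections of the other groups, so its own spread is unknown. The difference, female minus male, was -6.12 on the log2 scale for *Krt15*, a keratin of basal and follicle stem cells (edgeR adjusted p = 0.000352), 3.21 for *Krt1*, a keratin of suprabasal skin (edgeR adjusted p = 0.0141), and -3.43 for *Krt77* (edgeR adjusted p = 0.0440). *Krt15* stood at 15385 CPM in male Control, 20182 and 23896 CPM in male PITX1+, 32747 and 45042 CPM in female Control and 2143 and 679 CPM in female PITX1+ Langerhans cells. The male Control section gave only 7 cells with 455 transcripts, of which 7 were *Krt15*, 34 *Krt1* and 24 *Krt77*, sex and slide are the same variable, and all 3 are keratinocyte genes.

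The near against far ratio differed between buccal mucosa and skin for *Bmp2* (by 2.14) and for *Il1f8* (by -1.57), on the log2 scale and by the exact permutation test given above.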

How the results depend on the processing

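No paired analysis was possible because the labels number 1 sample per slide and give sections no number by which sections of different conditions could be matched; comparisons of cells within a section were matched by section, and exchanging skin sections only within a slide, added after seeing the data, left all 4 PITX1+ differences in direction and without a call. The call that Langerhans cells lay inside the epithelium more often than Cd74+ Cd207- cells held under every setting run. So did the calls of *Il34*, *Tgfb3* and *Cxcl12* near Langerhans cells. Requiring at least 1 of each marker turned the buccal minus Control difference to -0.349 (percent of cells) and -1.61 (per 1000 epithelial-marker cells), and the same limit in cells thinned to 30 transcripts, without shallower cells, gave a share difference of -0.492. Requiring at least 3 of each turned the PITX1+ difference to 0.675 per square millimetre and to 7.69 percentage points inside the epithelium; neither value passed a test in any setting. The cause was not tested.

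Counts of called genes moved by over 1.5 times as follows. Against Cd74+ Cd207- cells, 215 without a gene filter and 74 over the nucleus, against 141. Against neighbours, 116 by DESeq2 and 105 without a filter, against 59. For PITX1+ against Control, 11 by library size, 13 without a filter, 1 over the nucleus, 4 with at least 3 of each marker and 4 without the slide covariate, against 7. For buccal against Control, 108 by DESeq2, 149 without a filter, 34 over the nucleus and 43 without epithelial genes, against 70. For inside against outside, 27 by library size, 46 by DESeq2, 72 without a filter and 4 over the nucleus, against 17; at least 3 of each marker could not be fitted, as too few sections remained. Filters and nuclear counts change how many genes are tested. Library size moved the median log2 fold change by 0.35, -0.28, -0.10, -1.01 and -0.12 against Cd74+ Cd207- cells, for PITX1+, for buccal, for inside and against neighbours. *Krt5* turned to 0.15 (buccal, at least 3 of each marker) and *Mt4* to -0.020 (against neighbours, over the nucleus).

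Leaving out 1 section gave 126 to 143 genes against Cd74+ Cd207- cells, 51 to 80 against neighbours, 3 to 17 for PITX1+ (17 without male Control, 3 without either female PITX1+ section), 59 to 90 for buccal and 9 to 24 inside (9 without the second male PITX1+ section). The PITX1+ difference ran from -3.32 to 1.60 per square millimetre, -6.33 to -2.09 per 1000 epithelial-marker cells and -0.239 to -0.0737 percent of cells, and the buccal one from 11.4 to 17.7, 2.09 to 6.36 and 0.0563 to 0.227. The inside shares differed by -17.1 to -1.82 points for PITX1+ and by 5.00 to 19.1 for buccal. Among the unwounded groups the summed transcripts of Langerhans cells were fewest in Control, at 7189.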

Other observations

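Lymphocytes near Langerhans cells were counted as well. A T or NK marker cell lay within 20 µm of 1.93% ± 2.77 of Langerhans cells, 1.93% ± 2.24 of Cd74+ Cd207- cells and 0.384% ± 0.436 of epithelial-marker cells (SD, n = 13 sections). The difference from epithelial-marker cells had a two-sided exact sign-flip permutation p of 0.0400 and an adjusted p of 0.100 over 5 such tests, and it was positive in 6 of 13 sections. The difference from Cd74+ Cd207- cells had an exact permutation p of 0.999.

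The epithelium around Langerhans cells held a smaller follicle share of epithelial-list transcripts than that around all epithelial-marker cells, 11.4% ± 7.41 against 17.7% ± 13.7 (SD, n = 13), with an exact permutation p of 0.0251 and an adjusted p of 0.100. The suprabasal share was 66.8% against 59.9% (exact permutation adjusted p = 0.117) and the basal share 21.8% against 22.5% (exact permutation adjusted p = 0.837). None of these passed after adjustment.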
